A study of Mus musculus with 8 samples.

Results

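The genes of bone morphogenetic protein (BMP) signalling examined here were 3 ligand genes (Bmp2, Bmp4, Bmp7), 3 receptor genes (Bmpr1a, Bmpr1b, Bmpr2) and 4 Smad genes (Smad1, Smad5, Smad4, Smad7), 10 of the 21951 protein-coding genes of GENCODE mouse release 21. They were chosen by their place in the pathway, with earlier results of these data known. For each gene, every peak of acetylated histone H3 lysine 27 (H3K27ac) that touched the gene or lay within 20 kb of it was taken from 2 chromatin immunoprecipitation sequencing (ChIP-seq) peak lists on GRCm38/mm10. Both lists came from Oli-neu, an immortalized C57BL/6 mouse line of embryonic oligodendrocyte progenitor cells (OPCs). The proliferating cells were kept in N2-supplemented medium with T3 (340 ng/ml), L-thyroxine (400 ng/ml), bFGF and Pdgf-BB. The same T3 and L-thyroxine are recorded for the differentiating cells. The differentiating cells, labelled as control cells, spent 1 day, per the labels, without growth factors and with 1 μM of the erb inhibitor PD174265. Each state was 1 library of 1 line, so no difference between the states has a replicate check and no test of the states was possible. The other 6 samples of the series, assays of open chromatin after control or Padi2 siRNA, were not analysed here.

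H3K27ac marks active promoters and enhancers. BMP ligands bind a complex of type I and type II receptor kinases, which phosphorylates Smad1 and Smad5. These join Smad4, enter the nucleus and act on target genes such as those of the Id family, and Smad7 is an inhibitory Smad that is itself a target of the pathway. In the oligodendrocyte lineage, BMP signalling is known to hold back differentiation and to favour an astrocyte fate.

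In both states the acetylated start sites of the 10 genes belonged to the same 6 genes: the ligand Bmp7, the receptors Bmpr1a and Bmpr2, the receptor-activated Smad1 and Smad5, and the inhibitory Smad7. A start site peak is defined as one that touches the 3000 bp before, or the first 100 bp after, a transcription start site (TSS) of any annotated transcript. Of all protein-coding genes 31.3% had such a peak in the proliferating state, 35.3% had one in the differentiating state and 24.5% in both. Of the genes with one in the proliferating state, 78.3% also had one in the differentiating state, and 69.6% the other way round. The remaining 4 genes, Bmp2, Bmp4, Bmpr1b and Smad4, had a start site peak in neither state. Counting the whole window, 7 genes had a peak in proliferating cells and 8 in differentiating cells, where the shares of all protein-coding genes were 62.7% and 62.7%. The gene that made the difference was Bmp2, with a single peak beyond its 3′ end in differentiating cells.

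The windows held 18 peaks in proliferating and 16 in differentiating cells. The lists as a whole held 28924 and 27965 peaks. They give no read counts, so the counting error of the values is unknown. Each peak carries 3 values: its fold enrichment over background, −log10 p and −log10 q. As these depend on the depth of the library, a peak is placed below by the percent of peaks of its own list with a lower −log10 q, called its percentile. Member peaks had a median percentile of 55.8 in proliferating cells (range 4.35 to 97.9) and 61.4 in differentiating cells (23.5 to 97.5). Their median fold enrichment was 3.48 and 3.30, beside 3.33 and 3.13 over all peaks.

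**Figure D1:**
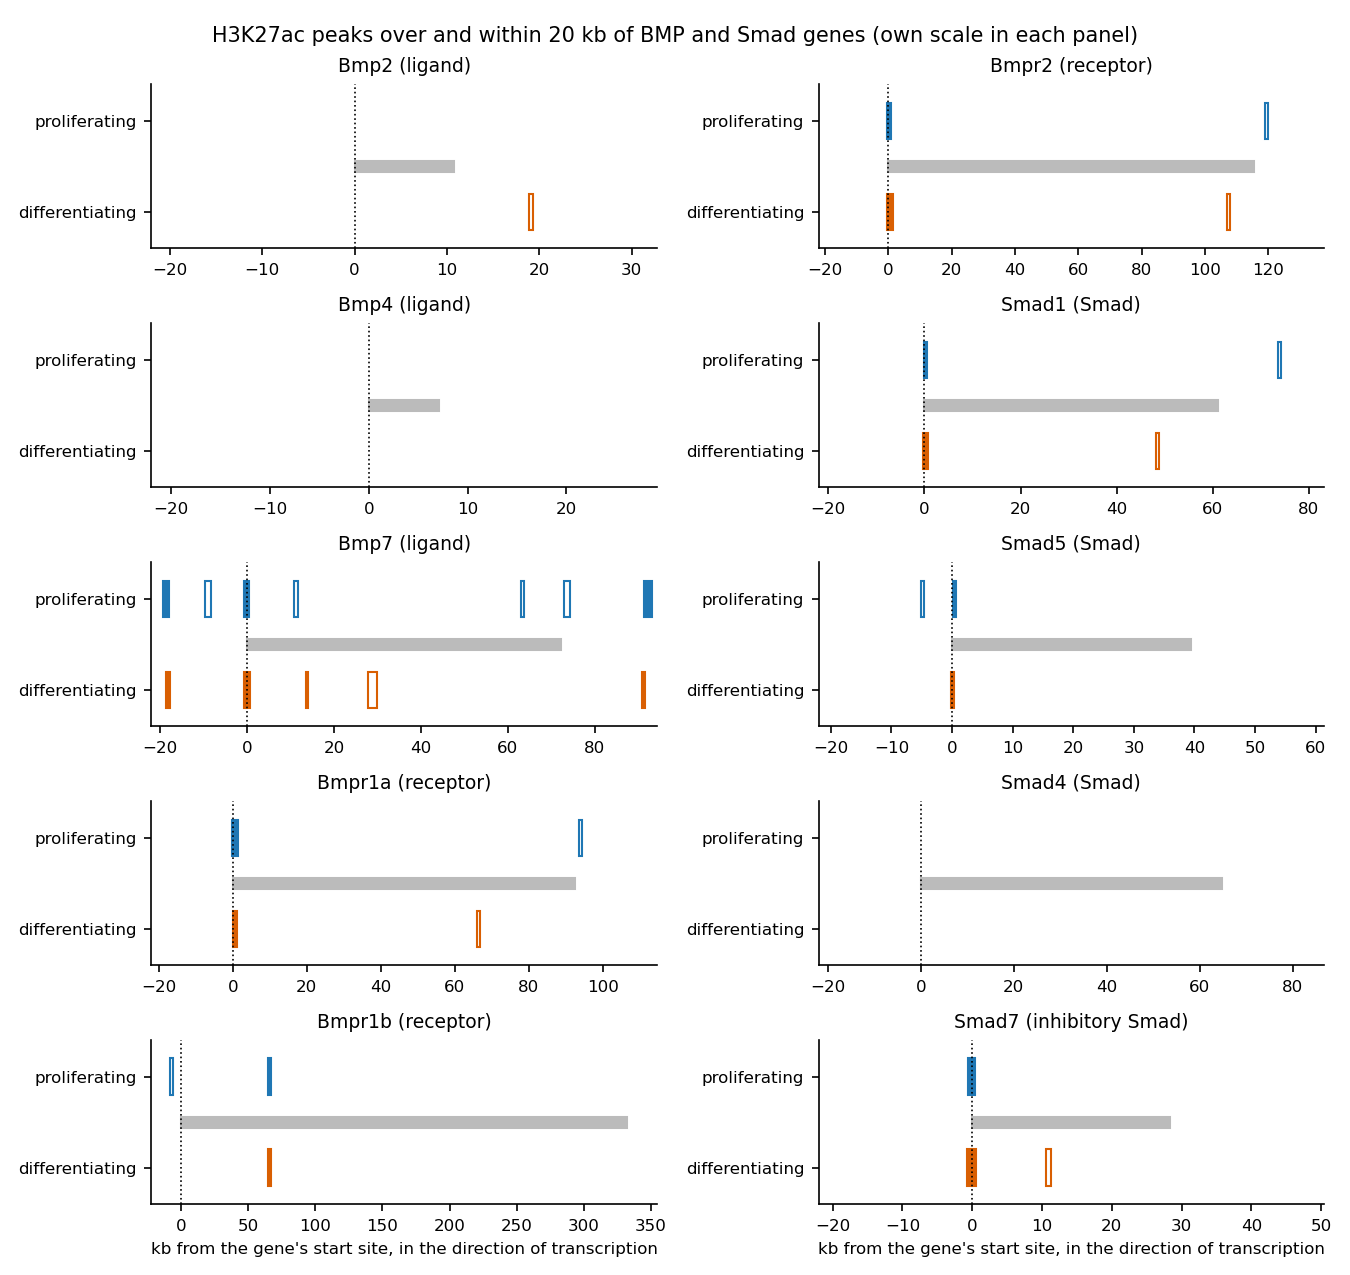
H3K27ac peaks (boxes) over each of the 10 genes and 20 kb on both sides, by distance in kb from the start site at the gene's 5′ end (dotted line) in the direction of transcription, with the gene as a grey bar and a scale of its own in each panel. Filled boxes share at least 1 base with a peak of the other state and open boxes do not, and very short peaks are drawn slightly wider than they are. Filled boxes stand at the start sites of 6 genes, in 2 flanks of Bmp7 and in an intron of Bmpr1b, and Bmp4 and Smad4 have no box.

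Among the ligand genes, Bmp7 carried the most H3K27ac of the 10 genes, whereas Bmp2 and Bmp4 had almost none. Bmp2 and Bmp4 encode close relatives that signal through the same type I receptors, and Bmp7 belongs to another branch of the ligand family. The Bmp7 start site (chromosome 2, minus strand) lay under a peak in each state. In proliferating cells it spanned chr2:172939779-172940916, with a fold enrichment of 3.32, −log10 q of 2.34 and a percentile of 67.8. In differentiating cells it spanned chr2:172939684-172940978, with a fold enrichment of 3.55, −log10 q of 3.75 and a percentile of 88.5. The differentiating peak enclosed the proliferating peak, and both covered the TSS, coding exon and untranslated bases.

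The 200 bases just before the start site are shown for the 3 ligand genes, since they contrast an acetylated start site with start sites that had no peak in either list. They are from GRCm38, 5′ to 3′ in the direction of transcription, with every CG dinucleotide in capitals. Bmp7 is chr2:172940322-172940521 on the minus strand, Bmp2 is chr2:133551959-133552158 on the plus strand and Bmp4 is chr14:46390670-46390869 on the minus strand.
Bmp7: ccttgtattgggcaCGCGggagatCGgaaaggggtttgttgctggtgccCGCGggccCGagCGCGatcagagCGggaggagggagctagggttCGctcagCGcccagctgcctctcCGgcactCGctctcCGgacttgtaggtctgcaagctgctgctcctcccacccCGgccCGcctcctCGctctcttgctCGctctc
Bmp2: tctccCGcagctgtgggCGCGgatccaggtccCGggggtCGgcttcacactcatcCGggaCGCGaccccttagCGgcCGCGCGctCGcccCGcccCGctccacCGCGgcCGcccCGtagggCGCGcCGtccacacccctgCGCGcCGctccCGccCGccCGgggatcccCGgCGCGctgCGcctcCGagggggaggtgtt
Bmp4: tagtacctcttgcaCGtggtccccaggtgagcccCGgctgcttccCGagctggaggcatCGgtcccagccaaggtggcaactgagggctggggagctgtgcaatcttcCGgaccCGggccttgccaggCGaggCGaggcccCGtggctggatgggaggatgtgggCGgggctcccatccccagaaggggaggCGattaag

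All 200 Bmp7 bases lay under the peak in both states, and they held 18 CG dinucleotides. Bmp2, without a start site peak, held 33 in its 200 bases, and Bmp4 held 11. The ratio of observed to expected CG (the CpG ratio) was 0.791 at Bmp7, 1.07 at Bmp2 and 0.493 at Bmp4, where 95.2% of all genes had a lower ratio than Bmp2 and 49.2% a lower ratio than Bmp4. The acetylated ligand start site therefore lay between the other two in CG content.

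Around Bmp7 there were 7 peaks in proliferating and 5 in differentiating cells. That is 6.23 and 4.45 peaks per 100 kb of its window, where the median over all protein-coding genes was 1.49 and 1.51. Of all genes, 93.5% had fewer peaks per 100 kb in proliferating cells and 85.3% in differentiating cells. The strongest peak of the 10 genes in differentiating cells, and the second strongest by percentile in proliferating cells, was not at a start site but 17.9 kb and 17.7 kb upstream of Bmp7. It spanned chr2:172958253-172959549 in proliferating cells (fold enrichment 5.22, −log10 q 5.95, percentile 97.2) and chr2:172958035-172959076 in differentiating cells (4.71, 6.77 and 97.5). No TSS of any annotated gene lay between it and Bmp7. The 2 intervals shared 824 bp.

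A further peak found in both states lay in the 3′ flank, 91.3 kb from the start site in proliferating cells (chr2:172847139-172849033, fold enrichment 3.36, percentile 53.3) and 91.0 kb from it in differentiating cells (chr2:172848594-172849306, 2.99 and 32.5), with 440 bp in common. At 1895 bp the proliferating one was the widest peak of the 10 genes in that state. The other Bmp7 peaks were found in 1 state each. There were 4 in proliferating cells, at percentiles from 4.35 to 57.1, and 2 in differentiating cells, both within introns, at 49.7 and 61.7. One of the latter, 27.9 kb downstream of the TSS and 1973 bp wide, was the widest member peak of that state.

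The middle 300 bases of the stretch shared by both states are shown for these flanking peaks, as the sites away from start sites that were acetylated in both lists. The strand is that of Bmp7 and capitals again mark CG. The upstream stretch is chr2:172958514-172958813 and the downstream stretch is chr2:172848663-172848962.
Bmp7 upstream flank: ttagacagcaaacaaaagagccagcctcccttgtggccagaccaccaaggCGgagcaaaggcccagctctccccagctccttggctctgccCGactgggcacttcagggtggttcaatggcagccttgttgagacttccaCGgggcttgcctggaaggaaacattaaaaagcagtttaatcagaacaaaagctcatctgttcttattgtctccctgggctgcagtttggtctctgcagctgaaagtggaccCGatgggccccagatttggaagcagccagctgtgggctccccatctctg
Bmp7 downstream flank: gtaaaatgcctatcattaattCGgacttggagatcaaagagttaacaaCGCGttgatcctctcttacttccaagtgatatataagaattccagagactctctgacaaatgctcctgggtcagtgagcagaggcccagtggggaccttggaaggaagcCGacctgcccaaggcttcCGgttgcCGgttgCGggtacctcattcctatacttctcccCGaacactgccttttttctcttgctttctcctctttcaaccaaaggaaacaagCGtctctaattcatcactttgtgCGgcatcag

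The 2 stretches differed in CG content. The upstream flank held 4 CG dinucleotides in 300 bases (observed over expected 0.177) and the downstream flank 10 (0.595). The upstream stretch also held CAGCTG, a sequence of the E-box kind that basic helix-loop-helix factors bind, at 2 places. It occurred in the central 300 bases of 15.6% of all proliferating and 16.2% of all differentiating peaks of at least that length. The same stretch had 1 match each to CAGAC, the short element that Smad proteins bind, and ACAAT, a core of the sites bound by Sox proteins, which stood in 48.8% and 36.8% of the central stretches of the proliferating list.

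Bmp2 had no peak in its window in proliferating cells, and the nearest of that state lay 90353 bp from its TSS. In differentiating cells a peak of 423 bp began 18853 bp downstream of the TSS (chr2:133571012-133571434, fold enrichment 3.02, −log10 q 1.48, percentile 23.5). It had the lowest percentile of the 16 member peaks of that state, and the annotated TSS nearest to it was that of Mir3090, 6304 bp away. Bmp4 had none in either state: the nearest peaks were 351893 bp and 216795 bp upstream of its TSS in proliferating and differentiating cells. Its chromosome 14 was sparsely covered, with 0.411 and 0.390 peaks per 100 kb, where chromosome 2, which holds Bmp2 and Bmp7, had 1.31 and 1.29.

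The type I receptor gene Bmpr1a and the type II receptor gene Bmpr2 were acetylated at their start sites in both states, and Bmpr1b, the other type I receptor gene, was not. At Bmpr1a (chromosome 14, minus strand) the proliferating peak spanned chr14:34501954-34503534, with a fold enrichment of 3.80, −log10 q of 2.86 and a percentile of 80.3. The differentiating peak was chr14:34502132-34503261, with 3.12, 1.97 and 54.1. The proliferating peak covered the TSS at the 5′ end of the gene and reached 193 bp upstream of it. The differentiating peak began 80 bp downstream of that TSS, and lay over the start sites of 2 other protein-coding transcripts. Both also overlapped the annotated gene Gm17110.

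At Bmpr2 (chromosome 1, plus strand) the proliferating peak was chr1:59762993-59764149, with a fold enrichment of 4.33, −log10 q of 5.04 and a percentile of 95.8. In differentiating cells it was chr1:59762942-59764714, with 3.11, 2.15 and 61.1. The start site of Bmpr2 thus stood among the top peaks of the proliferating list and nearer the middle of the differentiating list, although the differentiating peak was wider (1773 against 1157 bp). Chromosome 1 had the densest peaks of the members' chromosomes, at 1.92 and 1.87 per 100 kb, and Bmpr2 itself had 1.29 in each state. Each receptor gene with a start site peak had exactly 1 more peak per state in its window, and none of these had a counterpart in the other state. At Bmpr2 they were a peak of 263 bp in the 3′ flank in proliferating cells (percentile 69.0) and one over the 3′ part of the gene, on coding and untranslated exon sequence, in differentiating cells (45.8). The annotated TSS nearest to the 3′ flank peak was that of Gm37977, 4625 bp away. At Bmpr1a they were a 3′ flank peak in proliferating cells (50.4) and an intronic peak of 279 bp in differentiating cells (37.3).

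Bmpr1b (chromosome 3, minus strand) is the longest window, 372290 bp, and had 2 peaks in proliferating cells and 1 in differentiating cells. An intronic site about 65 kb into the gene was acetylated in both: chr3:142103688-142104002 in proliferating cells (315 bp, fold enrichment 2.90, −log10 q 1.33, percentile 4.82) and chr3:142102976-142104655 in differentiating cells (1680 bp, 3.30, 2.33 and 66.9). The short proliferating peak lay wholly inside the wider differentiating peak. It was 65.2 kb from the nearest annotated TSS. The second proliferating peak stood 6837 bp upstream of the gene's 5′ TSS, outside the start site stretch (316 bp, fold enrichment 3.37, percentile 43.8).

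For the receptors, the bases before the start site of Bmpr2 (chr1:59763200-59763399, plus strand) and Bmpr1a (chr14:34503342-34503541, minus strand) are shown beside the middle of the intronic Bmpr1b site (chr3:142103695-142103994, minus strand), with CG in capitals as above, to set the receptor start sites against the receptor site away from any TSS.
Bmpr2: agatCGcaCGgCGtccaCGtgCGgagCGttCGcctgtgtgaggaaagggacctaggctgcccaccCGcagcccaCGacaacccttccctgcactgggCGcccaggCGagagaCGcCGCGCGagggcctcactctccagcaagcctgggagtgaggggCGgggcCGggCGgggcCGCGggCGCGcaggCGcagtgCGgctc
Bmpr1a: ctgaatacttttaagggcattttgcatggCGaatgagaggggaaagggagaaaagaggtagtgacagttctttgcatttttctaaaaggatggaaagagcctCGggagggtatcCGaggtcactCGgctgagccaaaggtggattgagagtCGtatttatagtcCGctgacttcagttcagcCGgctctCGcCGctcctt
Bmpr1b intron: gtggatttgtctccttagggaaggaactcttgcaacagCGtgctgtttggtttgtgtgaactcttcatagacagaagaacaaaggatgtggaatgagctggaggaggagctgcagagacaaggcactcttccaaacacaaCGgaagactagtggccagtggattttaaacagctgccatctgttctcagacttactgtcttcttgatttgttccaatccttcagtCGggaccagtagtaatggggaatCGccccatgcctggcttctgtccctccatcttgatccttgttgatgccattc

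The Bmpr2 stretch held 24 CG dinucleotides in 200 bases and 1 match to GGCGCC, a GC-rich element bound by Smads of the BMP branch, and it lay under the peak in both states. The Bmpr1a stretch held 9, with 193 of its bases under the proliferating peak and 0 under the differentiating peak. The intronic Bmpr1b stretch held 4 in 300 bases. Before the start site of Bmpr1b itself, which had no peak, the ratio of observed to expected CG was 0.829, close to the 0.879 of Bmpr2.

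Smad1 and Smad5 encode the Smads that BMP receptors phosphorylate, and both had a start site peak in both states. At Smad1 (chromosome 8, minus strand) the proliferating peak, chr8:79399249-79399511, was 263 bp long, the shortest width in that list, and began 7 bp downstream of the TSS. Its fold enrichment was 3.94, its −log10 q 2.73 and its percentile 78.0. The differentiating peak, chr8:79398733-79399757, was 1025 bp long and covered the TSS, with 3.38, 2.22 and 63.5. The differentiating list alone had a peak (chr8:79350922-79351286, fold enrichment 3.30, percentile 53.4) in an intron, 871 bp upstream of a non-coding transcript of the gene, and so a second start site peak by the definition used. The proliferating list alone had a peak of 263 bp in the 3′ flank (percentile 24.1).

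At Smad5 (chromosome 13, plus strand) the start site peaks of the states overlapped by 251 bp but were shifted. In proliferating cells it was chr13:56703081-56703643, which began 71 bp downstream of the 5′ TSS (fold enrichment 3.51, −log10 q 2.02, percentile 54.4). In differentiating cells it was chr13:56702893-56703331, which covered that TSS and those of 3 other transcripts (3.57, 2.76 and 76.6). The proliferating peak lay over untranslated exon bases and also touched the annotated gene Gm27301. A peak 4702 bp upstream, chr13:56698046-56698308, was listed in proliferating cells only. It was 263 bp long, with a fold enrichment of 4.50, −log10 q of 3.81 and a percentile of 90.7. The strongest peak of the Smad5 window in that list was thus not the one at its start site. The annotated TSS nearest to this upstream peak was that of Gm27698, 1622 bp away.

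The bases before the start sites of Smad1 (chr8:79399519-79399718, minus strand) and Smad5 (chr13:56702810-56703009, plus strand) are shown because the peaks of the states differed in how far they reached over them, with CG in capitals.
Smad1: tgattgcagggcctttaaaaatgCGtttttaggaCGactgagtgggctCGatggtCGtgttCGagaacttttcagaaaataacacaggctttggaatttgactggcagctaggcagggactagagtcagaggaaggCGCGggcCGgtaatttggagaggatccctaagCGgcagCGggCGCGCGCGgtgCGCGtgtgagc
Smad5: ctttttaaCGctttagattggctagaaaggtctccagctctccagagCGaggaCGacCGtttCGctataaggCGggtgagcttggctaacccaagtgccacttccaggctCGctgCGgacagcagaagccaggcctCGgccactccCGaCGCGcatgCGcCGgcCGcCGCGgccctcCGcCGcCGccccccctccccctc

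None of the 200 Smad1 bases lay under the proliferating peak and all 200 lay under the differentiating peak. Of the Smad5 bases, 0 lay under the proliferating peak and 117 under the differentiating peak. Both stretches were rich in CG, with 16 dinucleotides at Smad1 and 20 at Smad5 and ratios of observed to expected CG of 1.17 and 0.9497. Neither held any of the Smad, Sox and E-box sequences named for the genes above.

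**Figure D2:**
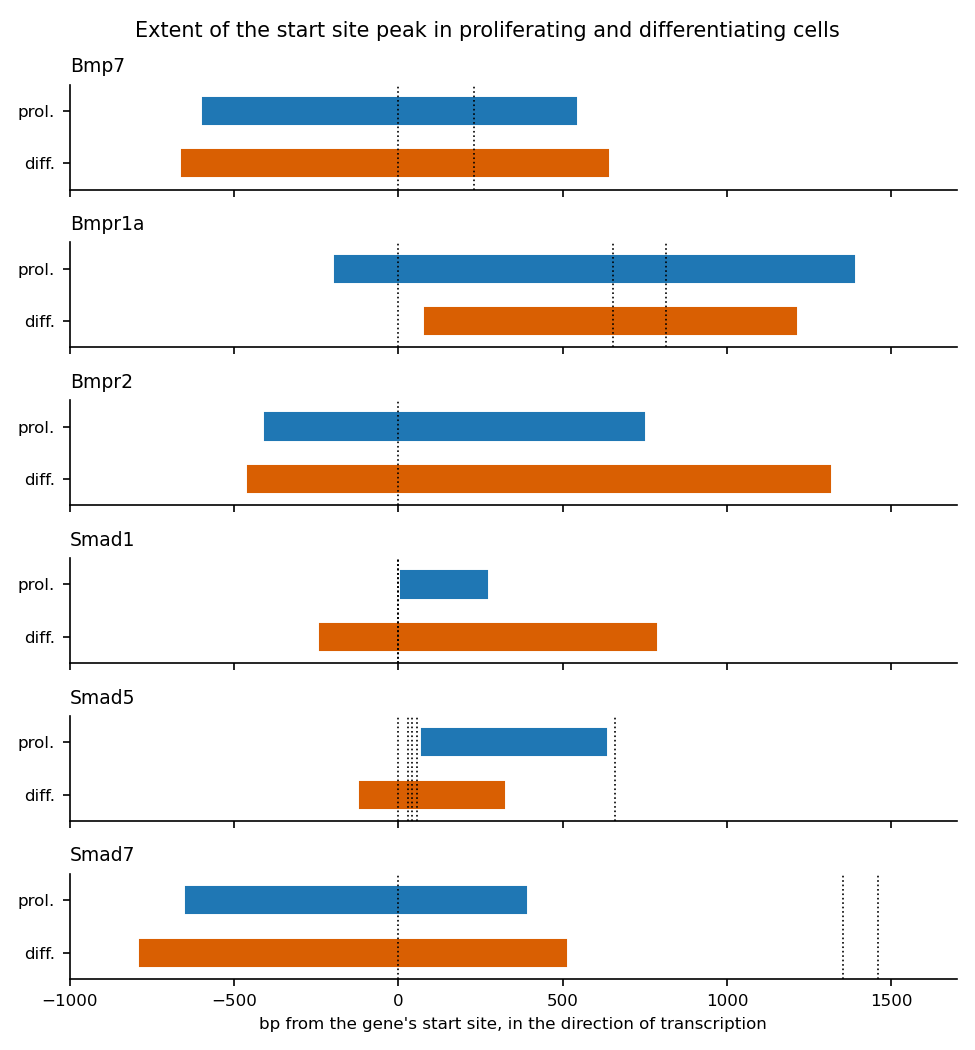
Extent of the start site peak of 6 genes in bp from the 5′ TSS, in the direction of transcription, in proliferating (blue) and differentiating (orange) cells, with annotated start sites as dotted lines. The peaks of the states overlap at every gene, and at Smad1 and Smad5 the differentiating peak covers a TSS downstream of which the proliferating peak begins. The intronic Smad1 peak next to a non-coding transcript is off the axis.

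Smad7, the inhibitory Smad, carried the strongest member peak of the proliferating list by −log10 q. It spanned chr18:75366884-75367916, over the TSS (plus strand) and untranslated bases, with a fold enrichment of 5.08, −log10 q of 6.68 and a percentile of 97.9. In differentiating cells the start site peak was chr18:75366744-75368040, with 3.33, 2.92 and 79.4, and enclosed the proliferating peak. Both peaks overlapped the annotated gene Gm20544 as well. Differentiating cells had a further intronic peak 10616 bp downstream of the TSS (fold enrichment 3.63, percentile 76.6) that proliferating cells did not.

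Smad4, the partner that all receptor-activated Smads share, had no peak in its window in either state. The nearest peaks to its 5′ TSS were 90445 bp and 50218 bp away in proliferating and differentiating cells. Of the protein-coding genes of chromosome 18, 31.6% had a start site peak in each state. Smad4 was not poor in CG, with an observed over expected ratio of 0.764 in the 200 bases before its TSS and 71.9% of genes lower.

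When the 6 shared start site peaks were placed by percentile, Bmpr2, Bmpr1a, Smad7 and Smad1 stood higher in the proliferating list and Smad5 and Bmp7 higher in the differentiating list. The differences, differentiating minus proliferating, were -34.7 percentile points for Bmpr2, -26.2 for Bmpr1a, -18.6 for Smad7, -14.5 for Smad1, 20.7 for Bmp7 and 22.2 for Smad5. Over the 5387 protein-coding genes with a start site peak in both states, the median difference was 0.37, the quartiles were -12.3 and 15.5 and the SD was 27.6. A difference at least as large as that of Bmpr2 was found at 19.6% of these genes, and at least as large as that of Smad1 at 48.3%. The shifts of the 6 genes are therefore of a size common among all genes, and with 1 library per state they cannot be told apart from variation between libraries.

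**Figure D3:**
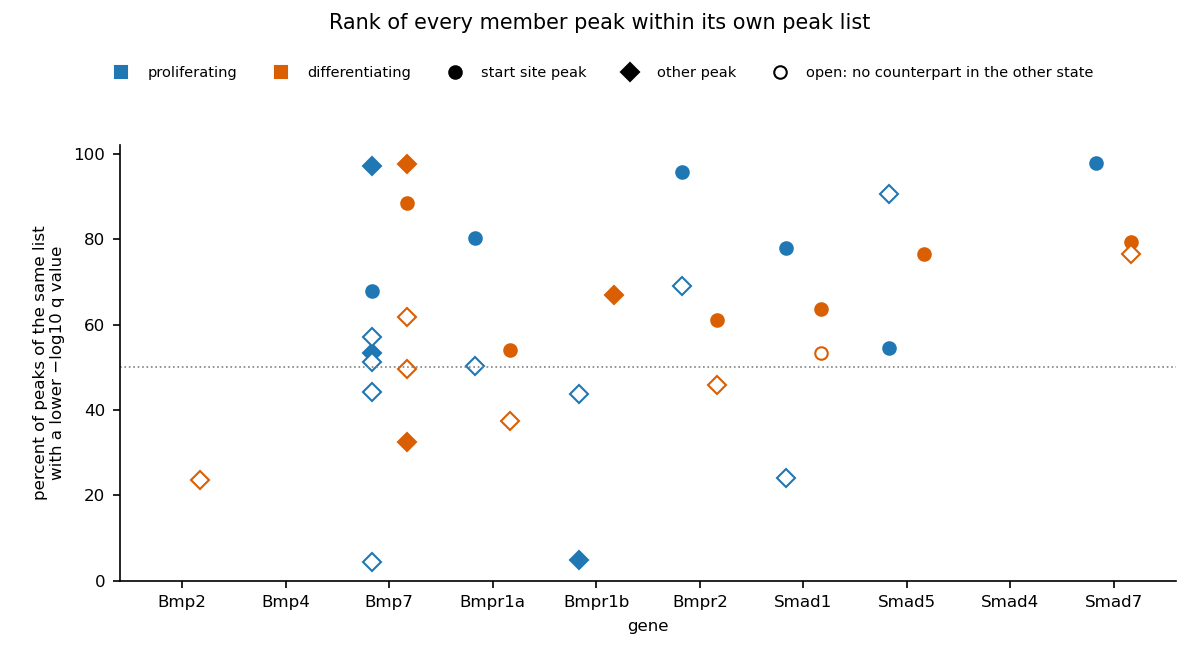
Percent of peaks of the same list with a lower −log10 q, for each member peak of proliferating (blue) and differentiating (orange) cells, with circles for start site peaks, diamonds for other peaks, open symbols for peaks without a counterpart and a dotted line at the middle of the list. All 13 start site peaks lie above the middle, from 53.4 to 97.9, and the other peaks run from 4.35 to 97.5.

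All 6 start site peaks in proliferating cells and all 7 in differentiating cells lay above the median of their list by −log10 q. Among the start site peaks of all protein-coding genes 70.8% and 72.8% did. The median percentile of the member start site peaks was 79.1 in proliferating and 63.5 in differentiating cells. Over all start site peaks it was 71.9 and 72.7. Taken by gene, over all genes with a start site peak in both states, it was 80.9 and 81.9. The differentiating member median also counts the intronic Smad1 peak without a counterpart (53.4), so it is not a like measure. The 6 shared member start sites ran from 54.1 to 88.5 in differentiating cells. Member start sites thus did not rank higher than those of other genes in both states. Peaks were next compared by whether the other list had a peak with at least 1 base in common. This held for 9 of the 18 proliferating member peaks (50%, 95% exact Clopper-Pearson interval 26.0 to 74.0%) and for 9 of the 16 differentiating ones (56.3%, 29.9 to 80.2%). Over all peaks the shares were 29.2% and 30.1%. When at least 0.5 of both peaks had to overlap, 5 of 18 (27.8%) and 5 of 16 (31.3%) member peaks had a counterpart, and 16.7% and 17.3% of all peaks. Among peaks with a fold enrichment at or above the median of their list, it was 4 of 14 (28.6%) and 4 of 11 (36.4%), beside 28.7% and 29.7% of all such peaks, so that under this threshold the member shares stood near those of all peaks. The intervals cover counting error only, and peaks of 1 gene are not independent.

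The sharing followed the start sites. Of the start site peaks of members, 6 of 6 in proliferating and 6 of 7 in differentiating cells had a counterpart, and over all start site peaks of protein-coding genes 66.8% and 60.2% did. Away from start sites it was 3 of 12 and 3 of 9, where all other peaks gave 17.6% and 18.9%. The 3 shared sites were the pair that flank Bmp7 and the intronic Bmpr1b site. Peaks at the shortest width of a list, 263 bp in proliferating and 279 bp in differentiating cells, made up 4 of the 18 and 1 of the 16 member peaks, and 22.9% and 17.5% of all peaks.

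Start site peaks of the members were GC rich and the others were not. In proliferating cells the 6 start site peaks had a median GC content of 71.2% (68.8 to 76.7%) and a median observed over expected CG of 0.988, and the 12 others 49.0% (37.0 to 54.1%) and 0.233. In differentiating cells the 7 start site peaks had 67.9% and 0.912, and the 9 others 49.1% and 0.210. The lowest of the former, at 40.5% GC and a ratio of 0.133, was the intronic Smad1 peak. Over all start site peaks the median GC content was 59.3% in proliferating and 60.0% in differentiating cells.

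Over all genes, a start site peak was more frequent where the 200 bases before the TSS were richer in CG. With genes put in 4 classes of like size by the CG ratio, from class 1 (lowest) to class 4 (highest), the share with a start site peak ran from 11.0% to 54.1% (proliferating) and from 10.6% to 61.7% (differentiating). Of the 10 genes, 7 fell in class 4, and 5 of these had a start site peak. The 2 that did not were Bmp2 and Bmpr1b. Class 3 held Bmp7, with a peak, and Smad4, without, and class 2 held Bmp4. Among the 10 genes, the ratio ran from 0.791 to 1.17 where there was a start site peak and from 0.493 to 1.07 where there was none. The other pathway genes were not examined for CG, and the part of CG content was not tested.

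**Figure D4:**
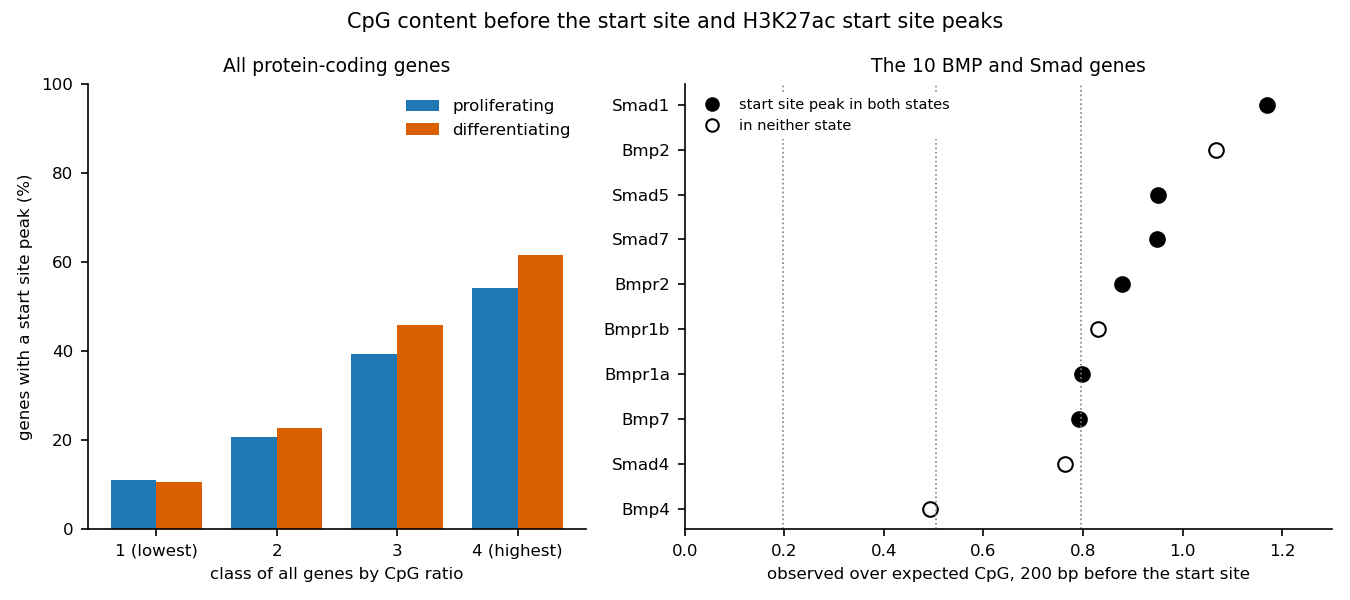
Left, percent of all protein-coding genes with a start site peak in proliferating (blue) and differentiating (orange) cells by class of the CpG ratio in the 200 bp before the start site. Right, that ratio for the 10 genes (filled, start site peak in both states; open, in neither), with dotted lines at the class boundaries. Bmp2 and Bmpr1b are open although they lie in class 4.

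The member peaks were searched on both strands for the Smad, Sox and E-box sequences given above and for the palindromic Smad binding element GTCTAGAC. The GTCTAGAC palindrome does not contain CAGAC on either strand, so a match to it is not in itself a match to CAGAC. It was found in 1 member peak per state, the Smad7 start site peak, at -353 to -346 bp from the TSS. Of all start site peaks, 0.747% in proliferating and 0.641% in differentiating cells held it. GGCGCC occurred in 5 of 6 and 6 of 7 member start site peaks, beside 38.7% and 42.6% of all start site peaks, at 2.44 and 2.18 matches per kb against 0.737 and 0.784. The member start site peaks were also longer, with medians of 1086 and 1130 bp against 816 and 873 bp, and richer in GC, as given above, and the part of length and composition in these counts was not tested. CAGAC occurred in 13 of 18 and 13 of 16 member peaks (all peaks, 72.5% and 76.2%), ACAAT in 8 and 7 (60.1% and 62.5%) and CAGCTG in 10 and 7 (31.6% and 35.1%). A match is a string of letters and does not show that a factor binds there.

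Start site peaks of the rest of the pathway were counted in the same way. Of 46 other genes of the pathway, 7 (15.2%) had a start site peak in proliferating and 17 (37.0%) in differentiating cells. All 7 of the former also had one in differentiating cells, so 10 had it in differentiating cells only and 0 in proliferating cells only. Over all protein-coding genes, 10.7% had one in differentiating cells only and 6.79% in proliferating cells only. None of this has a replicate check.

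The 11 other ligand genes, among them Bmp3, Bmp5 and Bmp6, had no start site peak in either list, so Bmp7 was the single ligand gene of the 14 examined with one. Of 9 other receptor and co-receptor genes, 2 had one in both states. These were Acvr1, a type I receptor of the Bmp7 branch (fold enrichment 3.34 and percentile 82.8 when proliferating, 3.51 and 89.4 when differentiating), and the type II receptor Acvr2a (3.35 and 59.2, then 3.48 and 82.6). The type II receptor Acvr2b and the co-receptors Rgma and Rgmb had one in differentiating cells only, at percentiles of 61.9, 71.1 and 62.3. The Rgmb peak lay at a start site inside the gene, not at its 5′ TSS. No start site peak was found at Acvrl1, Eng or Hjv.

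Among 6 other Smad and Smad ubiquitin ligase genes, Smad2 and Smurf2 had start site peaks in both states. Smad2, a Smad of the TGF-β and activin branch, had a fold enrichment of 5.17 and a percentile of 96.9 in proliferating cells and 4.42 and 92.6 in differentiating cells. For Smurf2, a ligase that marks Smads and receptors for degradation, the values were 3.97 and 79.6, then 3.34 and 69.1. Smad3 (percentile 71.0) and Smurf1 (29.2) had one in differentiating cells only. Smad9, the third Smad of the BMP branch, and Smad6, the other inhibitory Smad, had none in either state.

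Of 12 genes for extracellular antagonists and modulators, 2 had a start site peak in both states. Bmper had a fold enrichment of 4.07 and 4.04 and percentiles of 89.99 and 88.0 in proliferating and differentiating cells. At Fstl1 the peaks of the states lay at different start sites and did not overlap (percentiles 26.1 and 43.2). Twsg1, a BMP-binding modulator, had one in differentiating cells only (78.0). Nog, Chrd and Chrdl1, antagonists that bind the ligands, had none.

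The 8 target genes had 1 start site peak in proliferating and 5 in differentiating cells. Id1, Id2 and Id3, which encode inhibitors of basic helix-loop-helix factors and are the best known BMP targets, and Hey1, a transcriptional repressor, had a start site peak in differentiating cells only. Their differentiating fold enrichments were 3.16 for Id1, 3.73 for Id2, 3.16 for Id3 and 4.29 for Hey1, and their percentiles 48.7, 81.8, 51.0 and 91.1. Within 20 kb, Id1 and Id3 had 1 peak each in proliferating cells, and Id2 and Hey1 had 0. Msx1, a homeobox gene, had one in both states, with a fold enrichment of 2.65 and 2.75 and percentiles of 7.01 and 75.7. Id4, Msx2 and Gfap, the astrocyte filament gene, had none in either state.

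**Figure D5:**
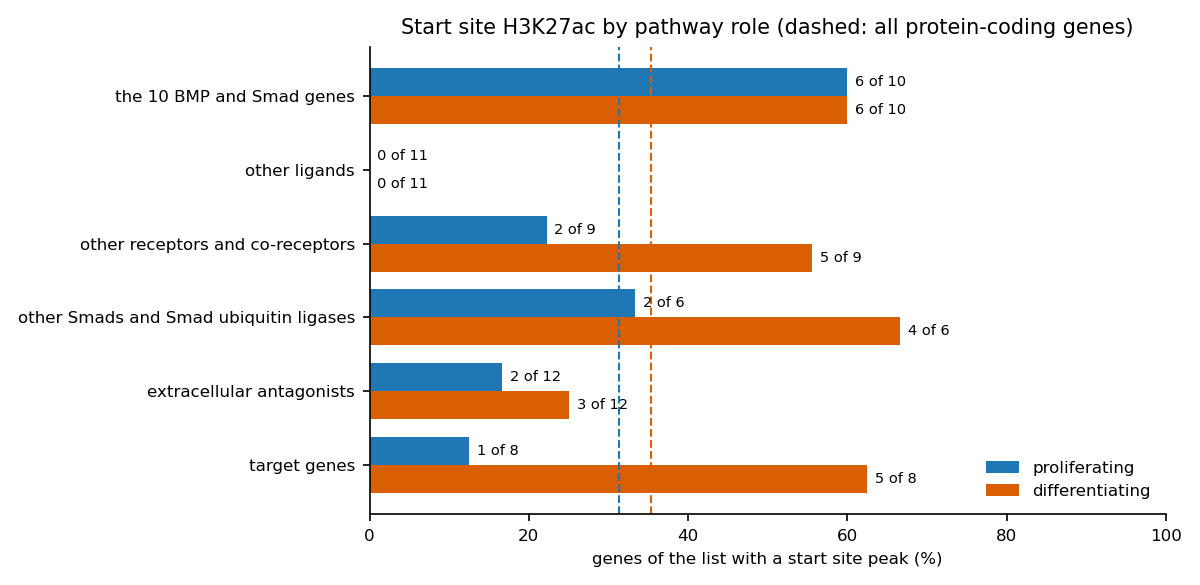
Percent of genes of each list with a start site peak in proliferating (blue) and differentiating (orange) cells, with the counts beside the bars and dashed lines at the shares of all protein-coding genes, 31.3% and 35.3%. The 10 genes stand at 6 of 10 in both states, the other ligands at 0 of 11, and the target genes at 1 of 8 and 5 of 8.

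As a check of the labelled cell type, start site peaks of marker genes were counted, again at a TSS of any annotated transcript. Peaks of Slc1a3, Aldh1l1, Map2, Col1a1 and Pdgfra counted here lay at start sites inside the gene, away from its 5′ TSS. Of the 11 oligodendrocyte lineage genes, 5 had one in both proliferating and differentiating cells: Olig1, Olig2, Sox10, Pdgfra and Cnp. The Pdgfra peaks at chr5:75154720-75155054 (proliferating) and chr5:75155783-75157037 (differentiating) did not overlap. Nkx2-2, Cspg4 and the myelin genes Mbp, Mag and Mog had none in either list. By state, astrocyte genes had 3 and 2 of 5, neuron genes 1 and 2 of 5, fibroblast genes 1 and 1 of 5 and microglia genes 0 and 0 of 5. The shares of all protein-coding genes were 31.3% and 35.3%. In both states it was 1, 1, 1 and 0 of 5, beside 24.5% of all protein-coding genes. Astrocyte genes stood above the share of all genes in each state (60% and 40%), so these short lists do not set the oligodendrocyte lineage apart from astrocytes. Peaks under the threshold of the lists are not in them, so a gene without a peak had no enrichment that passed it, which is not a measure of expression.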

How the data were processed

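The 2 files analysed were broad peak lists on GRCm38/mm10, one per state. Per the study's methods and the submitters' processing notes, the authors aligned reads with Bowtie2 2.1.0, kept uniquely mapped reads, removed PCR duplicates with SAMtools, called broad peaks with MACS2 2.0.10 and removed blacklisted regions with BEDTools. No input library is named in the sources used here. The deposited text field of each peak holds a fold enrichment ratio, −log10 p-value and −log10 q-value, read in the order in which MACS2 writes them. The weakest q-value was 0.0995 in the proliferating and 0.0983 in the differentiating list. The labels give 1 day of differentiation and the study's methods another time. The peak caller set each value from 1 library, so the spread between cultures is unknown.

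From these, peaks were joined to GENCODE release 21 with Python 3.11.15, with bedtools 2.31.1 as a check, after testing on simulated data. Bases came from the RefSeq copy of GRCm38. All 46 other pathway genes were matched, Hjv through a synonym. The 10 genes were always named. Of the other pathway lists, genes with a start site peak and up to 3 without were named, and of a member's peaks the nearest, strongest and widest. The members and lists were chosen with earlier results of these data known. No test or p-value was computed. Windows, peak thresholds, start site definitions and overlaps were varied. The result for 1 marker gene is not reported here.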

Additional observations from a re-analysis of the deposited data

How the results depend on the processing

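No paired analysis was possible because each state had 1 library and the samples that share replicate numbers were not analysed here. Of 78 values of 10 counts and shares recomputed under 13 alternatives, 67 stayed within 1.5 times the count or within the interval of the share. That interval is wide, and shares of member peaks with a counterpart that stayed in it still went from 50% and 56.3% to 27.8% and 31.3% where the shared bases made up 0.5 or more of each peak, to 38.9% and 43.8% with 0.5 of the peak counted, and to 28.6% and 36.4% with fold enrichment at or above the median. The other 11 came from 2 alternatives. With only peaks of −log10 q of at least 5, members with a peak within 20 kb went from 7 to 3 (proliferating) and from 8 to 1 (differentiating), members with a start site peak from 6 to 2 (Bmpr2 and Smad7) and from 6 to 0, peaks of members from 18 to 3 and from 16 to 1, and other pathway genes with a start site peak from 7 to 1 and from 17 to 0. The single differentiating peak left, upstream of Bmp7, had a counterpart (100%). This threshold keeps few peaks by construction. Without the 20 kb flanks, proliferating peaks of members went from 18 to 9, of which 77.8% had a counterpart. The 4 other definitions of a start site left the same 6 genes in both states. With fold enrichment at or above the median of each list, 5 and 4 genes stayed, without Bmp7 in proliferating cells and without Bmpr1a and Bmpr2 in differentiating cells. Weak peaks are the limit: 1 library per state and a lenient threshold leave the absence of a peak, and a peak found in 1 state, without a measure of error.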

Other observations

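Among all peaks, those of higher −log10 q more often had a counterpart in the other state, from 10.2% in the lowest of 10 classes by −log10 q to 78.7% in the highest class of the proliferating list and from 7.94% to 82.0% in the differentiating list. Some peaks of members and of the target gene Msx1 stood apart from this trend. The peak 4702 bp upstream of Smad5 was in the highest class of the proliferating list by −log10 q (percentile 90.7) and higher by fold enrichment (95.4), yet the nearest differentiating peak was 4585 bp away. It had the shortest width in its list, 263 bp. The intronic Bmpr1b peak was in the lowest class of the proliferating list (percentile 4.82) and had a counterpart that was wider (1680 against 315 bp) and at percentile 66.9. The Msx1 start site peak had a counterpart and was at percentile 7.01 in proliferating and 75.7 in differentiating cells. Its fold enrichments were 2.65 and 2.75, which depend on the depth of each library and are not compared between the lists. These peaks were picked after their values were seen.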
